A study of Mus musculus with 10 samples.

Results

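The transcription factors that set the layer identity of neurons in the mouse cerebral cortex were followed through knockdown of Chd8, which encodes a chromatin remodelling enzyme. The 9 factors, Fezf2, Bcl11b, Sox5, Tbr1, Bcl11a, Mef2c, Cux1, Cux2 and Pou3f2, were taken by gene symbol from the 23235 genes of each of 2 expression tables. They were picked by symbol, with earlier results of these data known. All 9 had a mean of at least 1 FPKM (fragment counts corrected for transcript length and library size) in both tables and were therefore tested in both.

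Cortical radial glia of mouse embryos received a plasmid for a Chd8 shRNA (a short hairpin RNA that directs breakdown of the matching messenger RNA) or a control shRNA by electroporation in utero at embryonic day 13. Transfected cells, marked by green fluorescent protein (GFP), were sorted from the cortices at embryonic day 15, and their RNA was sequenced. In the set called the new set here, 3 Chd8 knockdown libraries (replicates 10, 11 and 12) were set against 3 control libraries with the same numbers. The first set held 2 Chd8 knockdown libraries (replicates 1 and 2) and 2 control libraries. Each library came from cortices of 3 to 5 embryos, pooled, and replicates are separate pools. The deposited table of the new set is named for shRNA1 and that of the first set for shRNA2, so hairpin, batch and table cannot be told apart between the sets. The knockdown and control cells of both sets share the electroporation and the sort, and the mouse strain is not given in the sources used here. The sorted cells are a mixture of what the electroporated radial glia had produced by then, and the knockdown was partial.

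Cortical projection neurons are born in order, the neurons of the deep layers first and those of the upper layers later, and each class is held to its fate by a small network of transcription factors that repress one another. Fezf2, a zinc-finger factor, directs neurons to the subcerebral fate and acts upstream of Bcl11b (also called Ctip2), the zinc-finger factor needed for corticospinal axons. Sox5, an SRY-box factor, times the production of corticofugal neuron classes, and Tbr1, a T-box factor, sets the corticothalamic fate of layer 6. Bcl11a (Ctip1), the paralog of Bcl11b, and Mef2c, a MADS-box factor of neuronal differentiation and synapse formation, act across layers. Cux1 and Cux2, the cut-like homeodomain factors, and Pou3f2 (Brn2), a POU-domain factor, mark and shape upper-layer neurons.

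The promoters of the 4 factors that passed the test in either set are shown because these are the factors the results turn on. They are RefSeq sequences of build GRCm38.p6, from 250 bases before to 50 bases after an annotated start, read 5′ to 3′ on the strand of the gene. The Sox5 window is chr6:143947057-143947356 on the minus strand, the Bcl11b window is chr12:108003365-108003664 on the minus strand, and the Pou3f2 window is chr4:22488317-22488616 on the minus strand. Mef2c has 3 listed windows, and the one shown, chr13:83573357-83573656 on the plus strand, holds the starts of 4 of its 31 GENCODE transcripts. Capitals mark the motifs searched on both strands, which were the TATA box TATAAA, the CCAAT box, the TCF/LEF core ATCAAAG and the E-boxes CAGATG and CAGCTG.
Sox5: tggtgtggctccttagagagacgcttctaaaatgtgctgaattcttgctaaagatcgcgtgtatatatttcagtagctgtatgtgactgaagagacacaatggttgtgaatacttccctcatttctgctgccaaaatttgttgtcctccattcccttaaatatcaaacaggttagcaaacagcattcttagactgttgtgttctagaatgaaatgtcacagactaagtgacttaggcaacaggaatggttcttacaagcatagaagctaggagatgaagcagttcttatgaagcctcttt
Bcl11b: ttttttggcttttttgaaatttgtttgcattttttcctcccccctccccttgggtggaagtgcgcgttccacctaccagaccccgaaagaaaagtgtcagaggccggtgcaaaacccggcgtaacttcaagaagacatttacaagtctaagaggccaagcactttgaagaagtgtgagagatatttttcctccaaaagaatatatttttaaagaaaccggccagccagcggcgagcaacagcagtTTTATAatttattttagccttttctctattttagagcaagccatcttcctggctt
Mef2c: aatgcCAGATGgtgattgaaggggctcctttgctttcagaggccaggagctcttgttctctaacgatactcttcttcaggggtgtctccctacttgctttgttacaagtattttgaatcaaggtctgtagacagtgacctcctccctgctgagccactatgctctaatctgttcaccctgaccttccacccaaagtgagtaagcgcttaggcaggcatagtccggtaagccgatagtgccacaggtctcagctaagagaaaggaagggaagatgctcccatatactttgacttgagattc
Pou3f2: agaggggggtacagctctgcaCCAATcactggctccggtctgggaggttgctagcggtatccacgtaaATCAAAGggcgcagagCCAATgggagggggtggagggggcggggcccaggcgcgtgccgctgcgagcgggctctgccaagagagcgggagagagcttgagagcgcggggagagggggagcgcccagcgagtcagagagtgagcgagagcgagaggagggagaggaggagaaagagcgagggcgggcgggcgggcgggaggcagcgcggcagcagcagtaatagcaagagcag

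The Bcl11b window held the TATA box letters only on the opposite strand (TTTATA), across the annotated start and not upstream of it. On either strand, 13.6% of the 32851 mouse promoters in the same table held this motif. The Pou3f2 window held 2 CCAAT boxes, a motif in 37.4% of promoters, and the TCF/LEF core, which 3.73% of promoters held. The Mef2c window shown held CAGATG, found in 17.2% of promoters. The Sox5 window held none of these letters. All 9 factors had at least 1 listed promoter, and no motif was shared by more than 4 of them, counting every listed window. The CCAAT box was the one in 4 factors, Bcl11a, Mef2c, Pou3f2 and Tbr1. These matches describe the letters in the window and no more.

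Chd8 itself was lower in the knockdown libraries of both sets. In the new set its level was 2.09, 1.84 and 1.92 FPKM in the knockdown libraries, against 3.59, 3.30 and 4.02 FPKM in the control libraries. The knockdown mean was 53.6% of the control mean (log2 fold change −0.65, SE 0.117, limma adjusted p = 0.0213). The direction held whichever new-set library was left out, but the Chd8 call held only without control 11 (adjusted p = 0.0218). It was lost without control 10 (0.0603), control 12 (0.0648), knockdown 10 (0.059), knockdown 11 (0.0829) or knockdown 12 (0.053). First-set Chd8 was at 8.55 and 9.23 FPKM in the knockdown libraries, against 12.4 and 13.8 FPKM in the control libraries, which is 68% of control. The groups did not overlap, but the first-set difference did not pass the test (log2 fold change −0.51, SE 0.233, limma adjusted p = 0.152).

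The first-set knockdown libraries stood apart from the other 8. They detected 78.9% and 80.9% of genes above 0.1 FPKM, against 60.9% and 61.6% in the first-set control libraries, and the new set lay between 58.8% and 59.9%. The 1118 olfactory receptor genes, which cortical cells are not known to use, averaged 0.993 and 1.39 FPKM in the first-set knockdown libraries, against at most 0.0217 FPKM in the first-set control libraries. Their depth relative to the first control library was 0.527 and 0.528. These differences run along with every first-set comparison. Absolute depth is not known from FPKM.

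In the new set, Sox5 and Mef2c rose in the knockdown cells and none of the 9 factors fell, by limma, a count of 0 that stood at an unadjusted p under 0.05 too. Over all 11291 genes tested in the new set, 8.99% passed limma at an adjusted p under 0.05, 3.84% higher and 5.15% lower. The 9 log2 fold changes ran from −0.21 to 0.79 with a median of 0.21, beside a median of 0.02 over all genes tested, and 7 were above 0. Without control 11 the median of the factors was 0.00. Sox5 and Mef2c were also the factors whose groups did not overlap, 2 of 9, where 35.7% of all genes tested in the new set had groups that did not overlap, 18.6% with knockdown above and 17.1% with knockdown below. A higher level in a sorted bulk sample can come from more cells that express a gene or from more of its RNA per cell, and these cannot be told apart here, nor can fewer cells and less RNA per cell.

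Sox5 was at 112, 140 and 97.2 FPKM in the new-set knockdown libraries, against 77.3, 74.8 and 65.2 FPKM in the control libraries. Every knockdown library lay above every control library, and knockdown 11 was the highest. The means were 116 ± 21.8 FPKM in knockdown cells and 72.4 ± 6.42 FPKM in control cells (SD, n = 3 each), a log2 fold change of 0.66 (SE 0.137, limma adjusted p = 0.0289). Sox5 is overlapped in the annotation by 5 genes on the opposite strand, and strand-specific counting is not stated, so their reads cannot be told apart from its own. The Sox5 call was lost when any of 4 of the 6 libraries was left out (adjusted p 0.0603 without control 10, 0.081 without control 12, 0.074 without knockdown 10 and 0.0829 without knockdown 11), and it was lost at 0.0561 with no filter on low values.

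Mef2c was at 18, 23.5 and 18.3 FPKM in the new-set knockdown libraries, against 12.8, 11.5 and 9.10 FPKM in the control libraries. The groups were again apart, with replicate 11 the highest of the knockdown libraries, as it was for Sox5. The means were 19.9 ± 3.06 FPKM in knockdown cells and 11.1 ± 1.87 FPKM in control cells (SD, n = 3 each), a log2 fold change of 0.79 (SE 0.148, limma adjusted p = 0.0236). The Mef2c call held without control 10 or control 11. It was lost without control 12 (adjusted p 0.0559), knockdown 10 (0.0554), knockdown 11 (0.0833) or knockdown 12 (0.0509), and at 0.0509 with no filter. Mef2c is also made by microglia. Of 10 microglia and macrophage markers, only 4 were tested in the new set, and none of these was called. Summed over the 10, the level was 2.2 to 8.74 FPKM in knockdown libraries and 3.93 to 12 FPKM in control libraries.

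**Figure D1:**
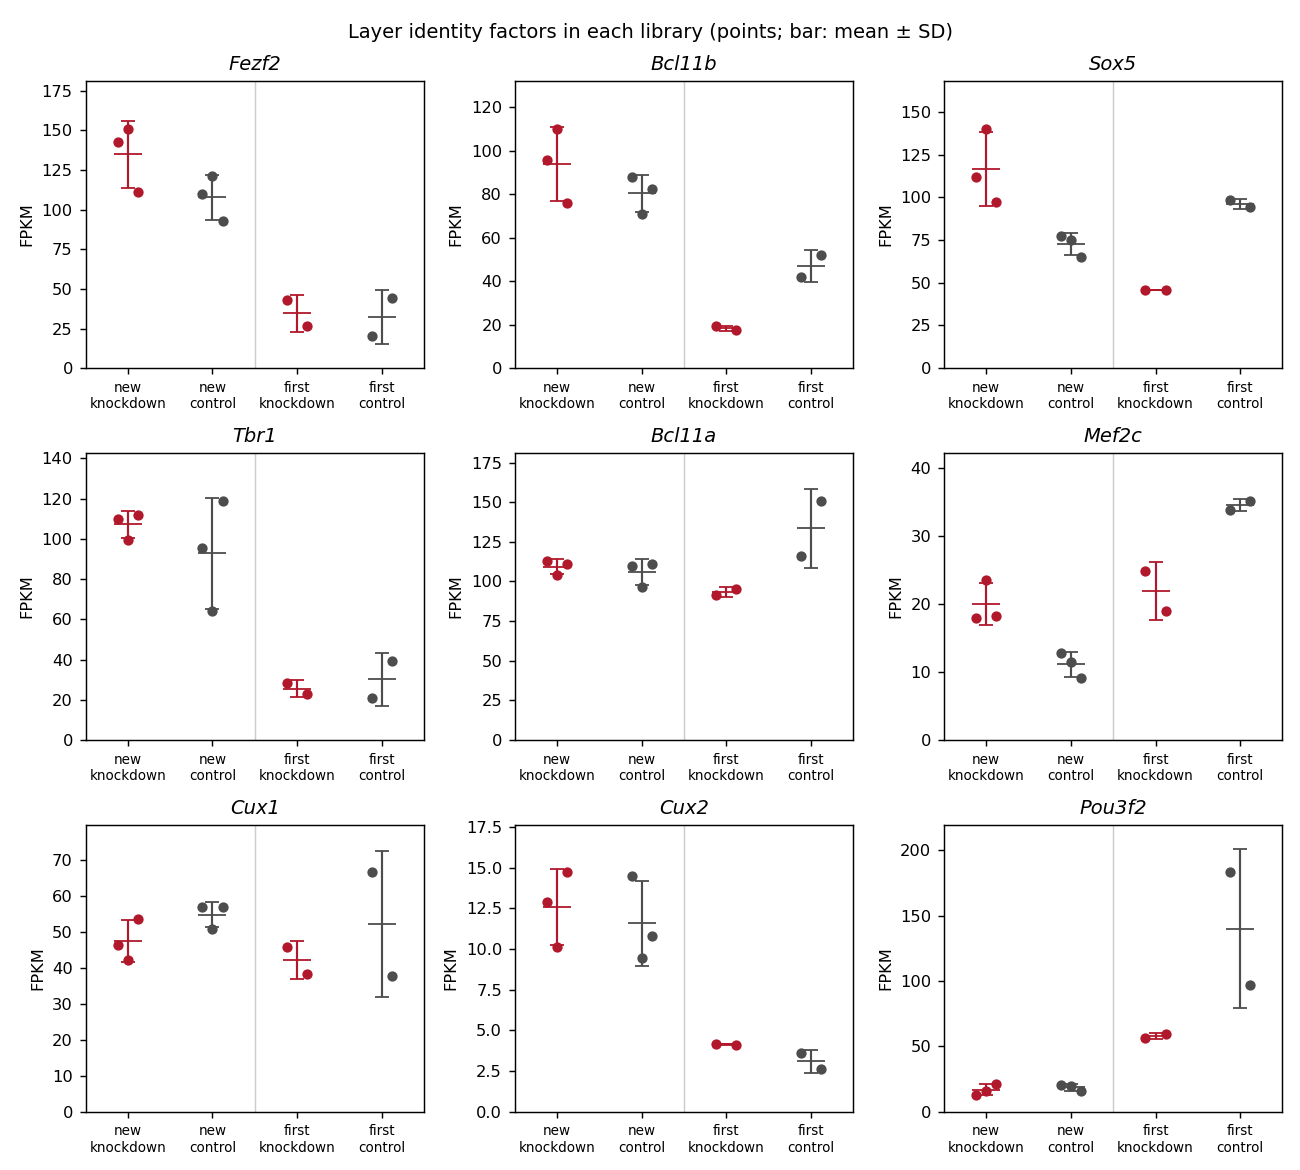
Level of each layer factor in every library, in FPKM on a linear axis from 0, with knockdown left of control within each set; each point is 1 library, and lines show the group mean ± SD. Sox5 and Mef2c lie above control in all 3 new-set knockdown libraries and below it in both first-set knockdown libraries.

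The other deep-layer factors of the new set had overlapping groups. Fezf2 was at 143, 151 and 111 FPKM in knockdown libraries, against 110, 121 and 92.8 FPKM in control libraries. Each knockdown library was above the control library of the same number, but knockdown 12 lay within the control range. The fold change of 0.31 on the log2 scale did not pass (SE 0.141, limma adjusted p = 0.176). With the replicate number as a block, Fezf2 passed at an adjusted p of 0.0229, in a fit that called 21.7% of all genes. That made 3 factors higher in place of 2.

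Bcl11b, which acts downstream of Fezf2, was at 95.8, 110 and 76.1 FPKM in new-set knockdown libraries, against 87.7, 71 and 82.2 FPKM in control libraries. The groups overlapped, and the log2 fold change of 0.21 did not pass (SE 0.142, limma adjusted p = 0.337). Tbr1 was at 110, 99.6 and 112 FPKM in knockdown libraries, against 95.7, 63.9 and 119 FPKM in control libraries. Its control libraries spread more widely than its knockdown libraries, with an SD of 6.58 FPKM in knockdown and 27.5 FPKM in control (log2 fold change 0.25, limma adjusted p = 0.422). Bcl11a had the log2 fold change closest to 0, with levels of 109 ± 5.09 FPKM in knockdown cells and 106 ± 8.04 FPKM in control cells (SD, n = 3 each) and a log2 fold change of 0.05 (SE 0.0868, limma adjusted p = 0.707).

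The 3 upper-layer factors had log2 fold changes on either side of 0 in the new set and none passed. Cux1 was at 46.3, 42.2 and 53.7 FPKM in knockdown libraries, against 56.8, 50.7 and 56.8 FPKM in control libraries, a log2 fold change of −0.21 (SE 0.105, limma adjusted p = 0.216). Cux1 overlapped between groups only through knockdown 12. Cux2 was at 12.6 ± 2.30 FPKM in knockdown cells and 11.6 ± 2.64 FPKM in control cells (SD, n = 3 each; limma adjusted p = 0.693). Pou3f2 was at 13.1, 15.8 and 21.3 FPKM in knockdown libraries, against 20.5, 19.9 and 15.6 FPKM in control libraries. Knockdown 12 held the highest Pou3f2 level of the 6 and knockdown 10 the lowest (log2 fold change −0.16, SE 0.177, limma adjusted p = 0.566).

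Bcl11b, Sox5 and Pou3f2 fell in the knockdown cells of the first set and none of the 9 factors rose, by limma, also a count of 0 at an unadjusted p under 0.05. Of all 12461 genes tested in the first set, 23.8% passed limma at an adjusted p under 0.05, 13.2% higher and 10.7% lower. The 9 log2 fold changes ran from −1.30 to 0.34 with a median of −0.50, beside −0.15 over all genes tested, and 2 were above 0. Genes low in control could enter this background through the knockdown libraries alone. At a minimum mean of 5 FPKM, which leaves out Cux2, the medians were −0.57 for the factors and −0.29 for all genes. With the olfactory receptor background subtracted they were −0.52 and −0.41. The groups did not overlap for 6 of the 9, with 5 lower in knockdown (Bcl11a, Bcl11b, Sox5, Mef2c and Pou3f2) and Cux2 higher. Over all genes tested in the first set, 67.8% had groups that did not overlap, 27.4% with knockdown above and 40.4% with knockdown below, so 6 of 9 is close to the background. Rescaling the libraries by median of ratios moved the median of all genes to 0.01 and that of the factors to −0.32, and the calls are also given on that scale.

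Bcl11b had the largest first-set change of the 9. It was at 19.2 and 17.5 FPKM in knockdown libraries, against 41.9 and 52 FPKM in control libraries. The knockdown libraries lay close together and far below both control libraries. The mean was 39.1% of control, a log2 fold change of −1.30 (SE 0.22, limma adjusted p = 0.0072), and −1.13 (adjusted p = 0.0131) after rescaling. The Bcl11b call held without control 1 (adjusted p = 0.0382). It was lost without knockdown 1 (0.065), knockdown 2 (0.0667) or control 2 (0.0697).

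Sox5 was at 45.6 and 45.5 FPKM in first-set knockdown libraries, against 98.2 and 94.2 FPKM in control libraries. Both groups were tight, and knockdown was at 47.3% of control. On the log2 scale the fold change was −1.06 (SE 0.191, limma adjusted p = 0.00935), and it was −0.89 (adjusted p = 0.0193) after rescaling. Leaving out any 1 of the 4 libraries kept the log2 fold change between −1.09 and −1.03 but ended the Sox5 call, at adjusted p of 0.0675 without knockdown 1, 0.0547 without knockdown 2, 0.0823 without control 1 and 0.0712 without control 2. One group then has a single library, which the fit assumes to vary like the other group.

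Pou3f2 was at 56.6 and 59.6 FPKM in first-set knockdown libraries, against 183 and 97.2 FPKM in control libraries. Control 1 had a far higher level than control 2, while the knockdown libraries were close to each other and below both. This gave a log2 fold change of −1.18 (SE 0.304, limma adjusted p = 0.0321). The Pou3f2 call was lost after rescaling (−1.01, adjusted p = 0.057), with no filter on low values (adjusted p = 0.104), and without knockdown 1 (0.189), knockdown 2 (0.156) or control 1 (log2 fold change −0.73, adjusted p = 0.16). Pou3f2 has a single exon, so spliced reads cannot mark its transcripts.

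Mef2c was at 24.9 and 18.9 FPKM in first-set knockdown libraries, against 33.9 and 35.2 FPKM in control libraries. The groups were apart, but the log2 fold change of −0.65 did not pass (SE 0.228, limma adjusted p = 0.0787). The 10 microglia and macrophage markers summed to 18.7 and 35.7 FPKM in first-set knockdown libraries and 2.44 and 7.81 FPKM in control libraries. Per gene, these knockdown values lie above the olfactory receptor mean of the same libraries (1.39 and 0.993 FPKM). The part of microglia in the Mef2c level was not tested. A marker low in control could pass the filter through the knockdown libraries alone, so no count of called markers is given. Bcl11a was at 91.2 and 95.4 FPKM in knockdown libraries, against 116 and 151 FPKM in control libraries, a log2 fold change of −0.50 (SE 0.214, limma adjusted p = 0.13). Cux2, the lowest of the 9, was at 4.18 and 4.13 FPKM in knockdown libraries, against 3.61 and 2.61 FPKM in control libraries. Its log2 fold change of 0.34 did not pass (limma adjusted p = 0.367) and was −0.04 once the mean olfactory receptor level of each library had been subtracted.

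The remaining 3 factors overlapped between groups in the first set, and their control libraries differed from each other more than the groups did. Fezf2 was at 43 and 26.5 FPKM in knockdown libraries, against 20.1 and 44.5 FPKM in control libraries. Tbr1 was at 28.5 and 22.6 FPKM in knockdown libraries, against 20.9 and 39.4 FPKM in control libraries. Cux1 was at 45.9 and 38.4 FPKM in knockdown libraries, against 66.5 and 37.8 FPKM in control libraries. Control 1 was thus the lower of the pair for the deep-layer factors Fezf2, Tbr1 and Bcl11b and the higher for the upper-layer factors Cux1, Cux2 and Pou3f2. Sox5, another deep-layer factor, was slightly higher in control 1. The limma adjusted p values were 0.775 for Fezf2, 0.71 for Tbr1 and 0.555 for Cux1.

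Transcript length moved with the first-set comparison. With genes divided into 4 equal classes by their longest GENCODE vM21 transcript, the median first-set log2 fold change was 0.18, −0.11, −0.28 and −0.36 from the shortest class to the longest. In the new set these medians were 0.07, 0.01, 0.01 and −0.01. The longest transcripts of the 9 factors run from 2429 bases in Fezf2 to 12862 bases in Cux1. After a correction for length and GC content, chosen after the data were seen, the first-set log2 fold change was −1.20 for Bcl11b (limma adjusted p = 0.011) and −0.85 for Sox5 (adjusted p = 0.019). Pou3f2 no longer passed (−0.95, adjusted p = 0.0637), Fezf2 changed sign to −0.05, and the median of the factors was −0.27.

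**Figure D2:**
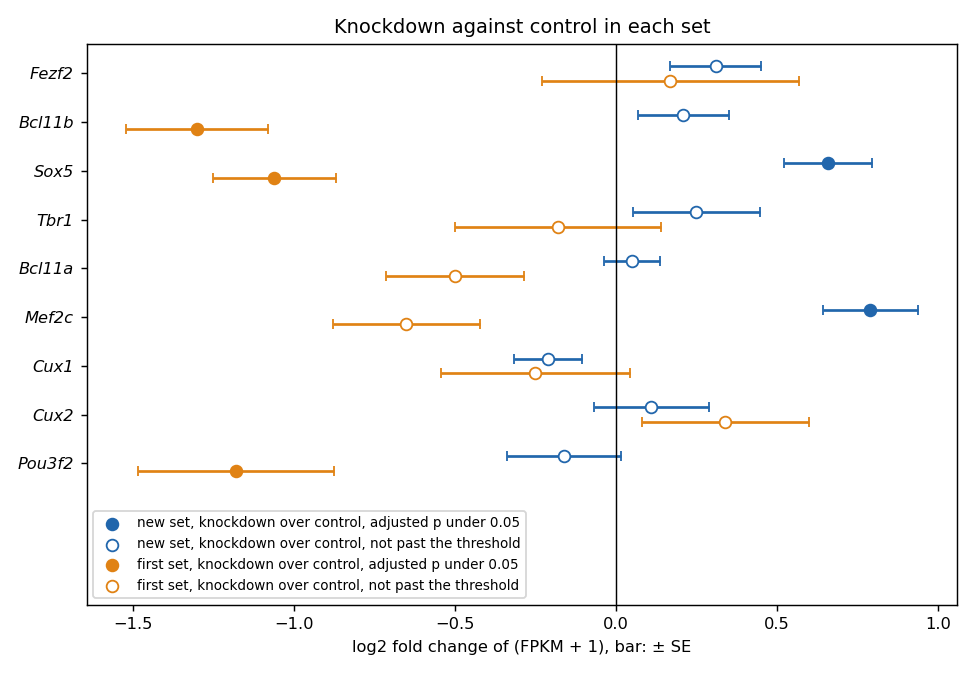
Log2 fold change of knockdown over control on the log2(FPKM + 1) scale for each layer factor and each set, with bars of 1 standard error and filled points for an adjusted p under 0.05. Sox5 and Mef2c have the highest new-set values, 0.66 and 0.79, and Bcl11b, Pou3f2 and Sox5 the lowest first-set values, −1.30, −1.18 and −1.06.

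The difference between the sets was tested in 1 fit over the 10827 genes tested in both tables, as the log2 fold change of the new set minus that of the first. It passed for 5 of the 9 factors, Sox5, Bcl11b, Mef2c, Pou3f2 and Bcl11a, each with the higher fold change in the new set. Over all genes in this fit 32.5% passed, 22.5% higher in the new set and 9.98% higher in the first set. The median difference was 0.55 for the factors and 0.23 for all genes. For all genes it was 0.35 at a minimum mean of 5 FPKM, 0.46 with the olfactory receptor background subtracted and −0.07 with no filter. For the factors it ran from 0.36 to 0.79 over the 8 alternatives that kept all libraries.

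For Sox5 the difference was 1.73 (SE 0.214, limma adjusted p = 0.000556), and for Bcl11b it was 1.52 (SE 0.237, limma adjusted p = 0.00152). Mef2c differed by 1.44 (SE 0.253, limma adjusted p = 0.00249). Sox5 is the one factor that passed in both sets, and it did so in opposite directions. The calls of Sox5, Bcl11b and Mef2c held under every alternative run for this difference. The difference was 1.02 for Pou3f2 (SE 0.356, limma adjusted p = 0.0464) and 0.55 for Bcl11a (SE 0.191, limma adjusted p = 0.0455). After rescaling these were 0.83 (adjusted p = 0.103) and 0.36 (adjusted p = 0.184), and leaving out 1 library ended the Pou3f2 call in 8 of 10 cases and the Bcl11a call in 9 of 10. Of the 8 alternatives that kept all libraries, the Pou3f2 call held in 2 and the Bcl11a call in 5. For Fezf2 the difference was 0.14 (SE 0.413, limma adjusted p = 0.811), for Tbr1 0.42, for Cux1 0.04 and for Cux2 −0.22, and none of these 4 passed.

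**Figure D3:**
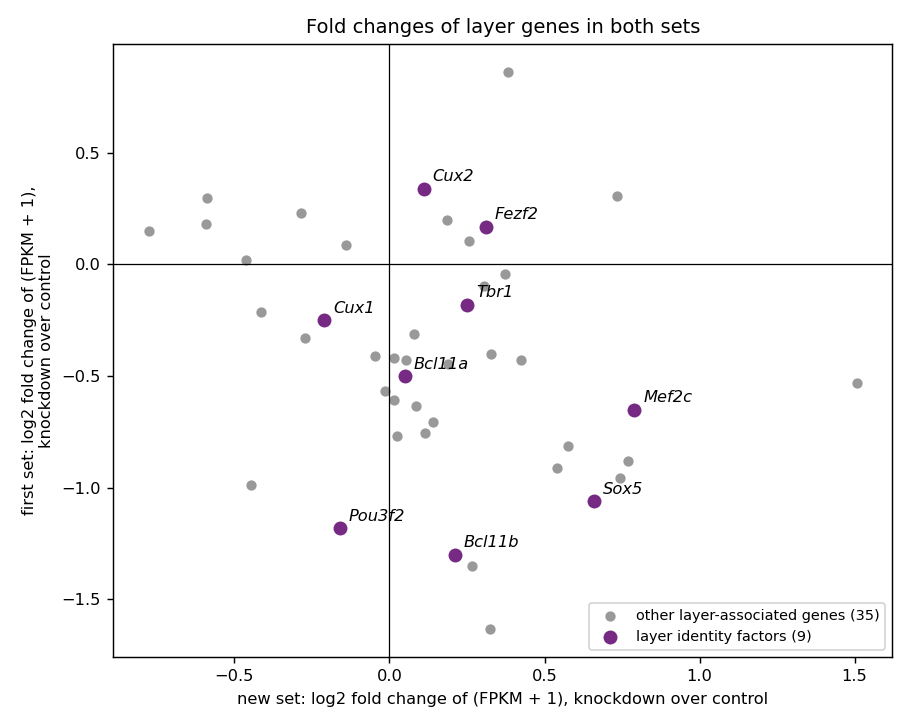
First-set against new-set log2 fold change (knockdown over control, log2(FPKM + 1) scale) of the 9 layer factors and of the other layer-associated genes tested in both sets; each point is 1 gene. Sox5, Mef2c and Bcl11b lie where the new-set value is above 0 and the first-set value below 0.

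Counted by sign alone, 5 of the 9 factors had a new-set value above 0 and a first-set value below 0, as had 3792 of all 10827 genes. Fezf2 and Cux2 were above 0 in both sets, and Cux1 and Pou3f2 were below 0 in both. In the mean of the fold changes of the sets, Bcl11b (−0.54, SE 0.119, limma adjusted p = 0.00679) and Pou3f2 (−0.67, SE 0.178, limma adjusted p = 0.0164) passed. These 2 of 9 stand beside 29.9% of all genes, 9.37% higher and 20.5% lower. For both, the new-set fold change did not pass and the first-set one did. The Pou3f2 mean was lost without first-set control 1 (−0.45, adjusted p = 0.0568). Without first-set control 2, Cux1 (−0.43, adjusted p = 0.0178) and Fezf2 (0.52, adjusted p = 0.0465) passed as well, making 4 of 9. Without first-set control 1, Bcl11a passed (−0.32, adjusted p = 0.0265). The mean for Sox5 was −0.20 and for Mef2c 0.07, since their fold changes in the sets oppose each other.

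The order of the levels, in FPKM and therefore per length, was not the same in the tables, and no level was tested across them. In the new-set control libraries Fezf2 averaged 108, Bcl11a 106, Tbr1 92.8, Bcl11b 80.3 and Sox5 72.4 FPKM, each overlapping its neighbour in the order. Cux1 followed at 54.8 FPKM and Pou3f2 at 18.6 FPKM, each apart from the factor above it, and then Cux2 at 11.6 and Mef2c at 11.1 FPKM, which overlapped. In the first-set control libraries Pou3f2 at 140 FPKM, Bcl11a at 134 FPKM and Sox5 at 96.2 FPKM led. Fezf2 at 32.3 FPKM, Tbr1 at 30.2 FPKM and Cux2 at 3.11 FPKM came last. In the new-set knockdown libraries Sox5 stood second, at 116 FPKM after Fezf2 at 135 FPKM. In the first-set knockdown libraries Bcl11b, at 18.3 FPKM, stood next to last above Cux2 at 4.15 FPKM.

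The summed level of general neuron markers differed between knockdown and control in both sets. The 11 general neuron markers found in the tables summed to 3274, 3909 and 3130 FPKM in new-set knockdown libraries, against 2346, 2669 and 2164 FPKM in control libraries, and 5 of them rose, with a median log2 fold change of 0.54. First-set sums were 3393 and 3130 FPKM in knockdown libraries, against 4999 and 4359 FPKM in control libraries, and 4 fell, with a median of −0.30. The first-set markers were mixed, with 4 of the 11 log2 fold changes above 0 and 7 markers that did not pass. In the new set 10 of the 11 were above 0. Of all genes tested, 3.84% rose in the new set and 10.7% fell in the first, with median log2 fold changes of 0.02 and −0.15. The first-set median of genes averaging at least 5 FPKM was −0.29. None of the 11 markers was at 0 in any library. Dcx, which encodes a microtubule protein of migrating neurons, rose in new-set knockdown cells (0.49, limma adjusted p = 0.0354) and fell in first-set ones (−1.34, limma adjusted p = 0.0147).

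The level of each factor was therefore also taken relative to the mean log2 level of these markers in the same library, as a description added after the data were seen. Since the mean level of the markers differed between the groups, this shifts every gene: the median difference over all genes tested was −0.53 (new set) and 0.07 (first set). The medians of the factors were −0.34 and −0.28. Relative to the markers, new-set Sox5 was 0.11 higher in knockdown on the log2 scale, and its groups overlapped. Mef2c was 0.24 higher with groups that were just apart, knockdown above control, as in 0.54% of all genes. Pou3f2 (−0.71), Cux1 (−0.76), Bcl11a (−0.50) and Fezf2 (−0.24) were lower in knockdown with groups apart, 4 of 9, where 71.7% of all genes were, so this is no result about the factors. First-set Bcl11b (−1.09), Pou3f2 (−0.97), Sox5 (−0.85) and Mef2c (−0.43) were lower relative to the markers with groups apart, 4 of 9 where 25.2% of all genes were, and Cux2 was higher (0.55), as were 36.5% of all genes. The part that the share of neurons plays in the fold changes was not tested.

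**Figure D4:**
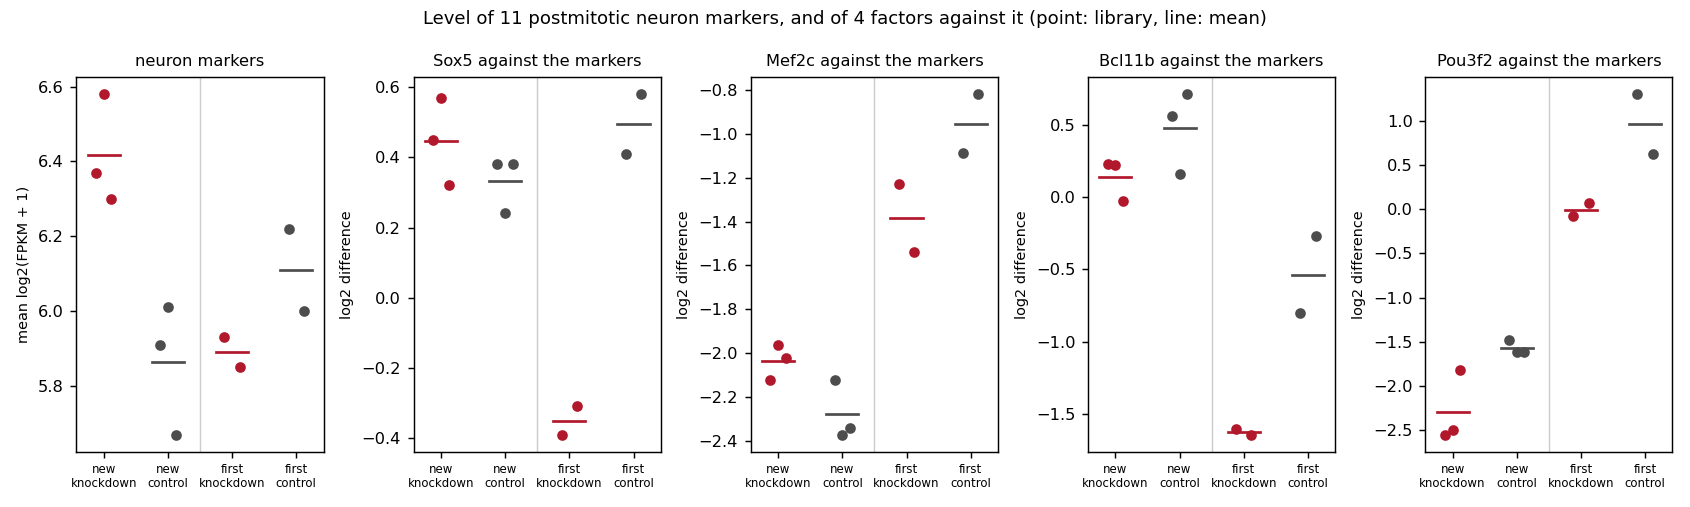
Mean log2(FPKM + 1) of the 11 neuron markers (first panel), and the log2 level of Sox5, Mef2c, Bcl11b and Pou3f2 minus that mean, with knockdown left of control within each set; each point is 1 library and each line a group mean. New-set Sox5 overlaps between knockdown and control on this scale, while first-set Sox5 and Bcl11b lie below control.

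Markers of other cell types gave the following values, to be read beside the share of all genes called (8.99% new set, 23.8% first set). In the new set 8 of 12 radial glia markers, 3 of 8 intermediate progenitor markers and 5 of the 6 interneuron markers tested fell. First-set tests called 3 radial glia markers and 3 intermediate progenitor markers lower, 2 intermediate progenitor markers higher and no interneuron marker. Interneuron markers summed to between 14.1 and 17.7 FPKM in new-set knockdown libraries, against 23.5 to 36.3 FPKM in control libraries. Striatal projection neurons also express Bcl11b. Their 12 markers summed to between 64.9 and 88 FPKM in new-set knockdown libraries and between 53 and 58.9 FPKM in control libraries, with Drd2 at 0 in every new-set library. Of their 3 markers tested in the new set Drd1a rose, at 5.19 ± 0.752 FPKM in knockdown cells and 2.63 ± 0.499 FPKM in control cells (SD, n = 3 each; log2 fold change 0.77, limma adjusted p = 0.0236). Their first-set sums were 52.7 and 61 FPKM in knockdown libraries and 24.4 and 53.3 FPKM in control libraries, while Bcl11b was lower. In the first set a marker low in control could pass the filter through the knockdown libraries alone, so no count of called striatal markers is given there. The 3 of the 12 that were tested in both sets (Drd1a, Ppp1r1b and Penk) rose in the mean of the sets, as did 9.37% of all genes in that fit. Cajal-Retzius markers summed to between 1.55 and 2.38 FPKM in new-set knockdown libraries and between 4.21 and 7.28 FPKM in control libraries, with Reln, the 1 tested, falling (−1.01). Their first-set sums were 2.4 and 2.73 FPKM in knockdown libraries and 0.737 and 1.98 FPKM in control libraries. Oligodendrocyte precursor markers summed to between 0.772 and 1.06 FPKM in new-set knockdown libraries and between 1.23 and 1.97 FPKM in control libraries, and to 1.34 and 1.91 FPKM in first-set knockdown libraries and 0.38 and 1.26 FPKM in control libraries. Meningeal markers overlapped in the new set, where they reached at most 2.33 FPKM. They summed to 1.62 and 1.93 FPKM in first-set knockdown libraries and 0.371 and 0.64 FPKM in control libraries. The Cajal-Retzius, oligodendrocyte precursor and meningeal sums are over 6, 5 and 6 genes. Per gene, their first-set knockdown values lie under the olfactory receptor mean of those libraries (1.39 and 0.993 FPKM). They are therefore not read as more of these cells. Endothelial and pericyte markers, at most 16.5 FPKM in any library, overlapped in both sets. Erythroid markers summed to between 23.6 and 115 FPKM in new-set knockdown libraries and between 149 and 280 FPKM in control libraries, and to 1.41 and 43.3 FPKM in first-set knockdown libraries and 16.6 and 19 FPKM in control libraries. The part of these cells in the factors' values was not tested.

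Of 38 other genes associated with cortical layers, 5 rose, among them Inhba, Cdh13, Neurod6 and Lpl, and 2 fell (Nr4a2 and Lhx2) among the 35 tested in the new set. Among the 37 tested in the first set none rose and 6 fell, among them Nfia, Nfib, Rnd2, Cdh13 and Neurod6. Of all genes tested, 3.84% rose and 5.15% fell in the new set, and 13.2% rose and 10.7% fell in the first. The median log2 fold change was 0.12 in the new set, beside 0.02 over all genes tested. It was −0.41 in the first set, beside −0.15 over all genes tested and −0.29 over those averaging at least 5 FPKM. Cdh13 and Neurod6 passed in both sets in opposite directions, like Sox5. Neurod6 is also one of the general neuron markers used above. The difference between the sets passed for 11 of the 35 tested in both, 10 with the higher value in the new set and Nr4a2 with the lower. Over all genes 32.5% passed, 22.5% higher in the new set and 9.98% lower, so 11 of 35 is close to the background.

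Among the layer-associated genes with the smallest p for the mean of the sets, the nuclear factor I genes Nfib and Nfia, regulators of gliogenesis and of deep-layer development, passed in the first set and not in the new set, as Bcl11b did. Nfib averaged 139 ± 21.4 FPKM in first-set knockdown cells and 434 ± 62.7 FPKM in control cells (SD, n = 2 each), a log2 fold change of −1.63 (SE 0.221, limma adjusted p = 0.00294), and its new-set value of 0.32 did not pass (adjusted p = 0.0697). Nfia had a first-set log2 fold change of −1.35 (limma adjusted p = 0.00935) and a new-set value of 0.27 that did not pass. Rnd2, a small GTPase of neuronal migration, had a first-set log2 fold change of −0.75 (limma adjusted p = 0.0351). Etv1, an ETS factor of layer 5 neurons, fell in the mean of the sets by 0.72 on the log2 scale (limma adjusted p = 0.00841), as did Foxp1, a forkhead factor, by 0.28 (adjusted p = 0.0484). Ppp1r1b, which encodes the signalling protein DARPP-32 and is also a striatal marker, rose in that mean by 0.62 (limma adjusted p = 0.0203).

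Paralogs of the factors were described by the same rule, to be read beside the same shares of all genes. Of the 13 in the tables, 1 rose and 1 (Sox13) fell among 10 tested in the new set, and 3, Sox6 and Eomes among them, fell among 9 tested in the first set. Sox6, the SoxD relative of Sox5, was at 3.85 ± 0.347 FPKM in new-set knockdown cells and 5.24 ± 0.618 FPKM in control cells (SD, n = 3 each), a difference that did not pass (log2 fold change −0.36, limma adjusted p = 0.0975). First-set Sox6 was at 3.19 ± 1.10 FPKM in knockdown cells and 8.47 ± 0.619 FPKM in control cells (SD, n = 2 each; log2 fold change −1.20, limma adjusted p = 0.0247). Its mean over the sets was −0.78 (limma adjusted p = 0.0021). Eomes, the T-box relative of Tbr1 that marks intermediate progenitors, fell in the first set (−1.25, limma adjusted p = 0.0216), and its new-set value of 0.16 did not pass. Satb1 fell in the mean of the sets (−0.61, limma adjusted p = 0.0127), and Pou3f4, a relative of Pou3f2, did not pass in that mean (−0.42, limma adjusted p = 0.0909).

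The genes whose pattern over the 10 libraries was most like that of each factor were found by Pearson correlation of log2(FPKM + 1), centred on the control libraries of each table, over 10827 genes. The libraries fall into 4 groups, so these values describe group differences as much as single libraries, and no p is given. Sox5 was most like Kif3a (r = 0.997), Exoc3 (0.995) and Ncbp1 (0.994). Bcl11a was most like Arf3 (0.997), Gspt1 (0.992) and Rbbp6 (0.990), and Bcl11b was most like Brwd3 (0.987), Smarcad1 (0.986) and Nfia (0.985). Nfia is the one layer-associated gene among these. Mef2c was most like Pcdhgb8 (0.982), Magee1 and Hs6st2 (both 0.979), and Fezf2 was most like Ier5 (0.966), Nsun2 (0.965) and Tprgl (0.956). Tbr1 was closest to Prkce (0.964), Pcdh19 (0.928) and Tacc2 (0.925), and Pou3f2 to Pknox2 (0.949), Casp8ap2 and Pot1a (both 0.948). The least close were Cux1, with Pcif1 (0.938), Tcf19 (0.902) and Gbas (0.90), and Cux2, with Gmip (0.882) and Xpo7 (0.878).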

How the data were processed

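RNA of GFP-sorted cortical cells was measured in 10 libraries, grouped by their labels. Per the labels' protocols, RNeasy Plus extraction and a Clontech low input kit were used. Per the submitters' processing notes, TopHat2, Bowtie, Cufflinks 2.0.0, Cuffdiff and build mm9 were used. No source used here gives the annotation, filters or strand setting. The authors deposited FPKM values in 2 tables of 23235 genes, made separately, so fold changes were taken within a table.

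Values were transformed to log2(FPKM + 1), a scale that understates changes of low genes. Genes averaging 1 FPKM or more over a table entered limma 3.58.1 (R 4.3.3, two-sided moderated test with a mean-variance trend), with Benjamini-Hochberg adjustment over all genes tested and a threshold of 0.05. Residual degrees of freedom were 4 (new set), 2 (first set) and 6 (joined fit). The joined fit gave the mean and the difference (new minus first) of the fold changes. Scripts were tested on simulated data.

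Replicates are separate embryo pools, per the design text. In the new set, deviations of same-numbered knockdown and control libraries correlated at 0.122, 0.242 and 0.193, all over 0.1, so the numbers were taken to pair the samples from the data; the main fit has no block.

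Named genes were the 9 factors, Chd8, the 6 layer-associated genes and 4 paralogs ranked first by p for the mean of the sets, and the 3 nearest genes of each factor by correlation. Dcx, the striatal markers, Reln and the other list members named as called were added after their values were seen. The members, gene lists and marker lists were chosen with earlier results of these data known. Alternatives were a replicate block, another pseudocount, other filters, median-of-ratios rescaling, olfactory receptor background subtraction, no variance trend, a length and GC correction and leaving out each library. Promoters came from RefSeq GRCm38.p6 and gene models from GENCODE vM21, and no coordinates of the deposited tables were used. Absolute depth is unknown, so no counting intervals are given. Some genes that met these rules are not reported here.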

Additional observations from a re-analysis of the deposited data

Results flagged for a closer look

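For 5 factors the knockdown effect differed between the sets by a test of the difference itself (limma, new-set minus first-set log2 fold change). The difference was 1.73 for Sox5, 1.52 for Bcl11b, 1.44 for Mef2c, 1.02 for Pou3f2 and 0.55 for Bcl11a. The same test passed for 32.5% of all genes. Pou3f2 (adjusted p = 0.0464) and Bcl11a (0.0455) were near the threshold and lost the call with rescaling, with no variance trend, and in 8 and 9 of the 10 fits that left out 1 library. Over the 8 alternatives that kept all libraries, the call of the difference held in 2 for Pou3f2 and in 5 for Bcl11a. Sox5 had a new-set log2 fold change of 0.66 and a first-set one of −1.06. In the same order, the fold changes were 0.21 and −1.30 for Bcl11b, 0.79 and −0.65 for Mef2c, −0.16 and −1.18 for Pou3f2, and 0.05 and −0.50 for Bcl11a. Between the sets, hairpin, batch and table cannot be told apart. Groups hold 2 or 3 libraries, too few to test a single library as an outlier.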

How the results depend on the processing

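The count of factors called in the new set (2) was 0 with no filter on low values and 0 to 2 when 1 library was left out; in the first set (3) it was 0 to 1, for the mean of the sets (2) it was 2 to 4, and for the difference between the sets (5) it was 3 to 4. The difference count was 3 with median-of-ratios rescaling, with no variance trend and with the length and GC correction (chosen after seeing the data). The new-set log2 fold change of Chd8 ran from −0.70 to −0.59 over left-out libraries, with its call lost in 5 of 6. The new-set median of the factors was 0.00 without control 11.

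The sign turned for 7 values, none of them a call: first-set Fezf2 was −0.05 and the Cux2 difference 0.01 with the length and GC correction; the Fezf2 difference was −0.04 and the Cux1 difference −0.15 with rescaling; first-set Cux2 was −0.04, the Cux2 difference 0.15 and the Chd8 difference 0.04 with background subtraction. Over left-out libraries, ranges spanning 0 were −0.01 to 0.09 for Bcl11a and −0.01 to 0.28 for Cux2 in the new set, −0.39 to 0.72 for Fezf2, −0.62 to 0.26 for Tbr1 and −0.65 to 0.15 for Cux1 in the first set, −0.04 to 0.52 for Fezf2, −0.18 to 0.26 for Tbr1 and −0.02 to 0.17 for Mef2c in the mean, and −0.41 to 0.70 for Fezf2, −0.02 to 0.86 for Tbr1 and −0.36 to 0.44 for Cux1 in the difference. Cux2 in the first set and Chd8 in the new set had no value at a minimum of 5 FPKM. The cause of these shifts was not tested.

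With the replicate block, 3 new-set factors, 3 first-set factors and 4 differences were called (Pou3f2 lost, adjusted p = 0.07). Same-numbered libraries of the first set, with r = −0.0285, share only a number.

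Genes called in the new set (1015) numbered 2452 with the block, 470 with no filter, 1893 with the length and GC correction and 88 to 1883 over left-out libraries. In the first set (2971) they numbered 1602 at a minimum of 5 FPKM and 713 to 1247 over left-out libraries. With no filter the mean of the sets called 5917 genes (3238) and the difference 6345 (3520). The share of first-set calls that were higher was 55.2%, but 74.4% with rescaling, 84.4% with no filter, 30.6% with background subtraction and 31.3% at 5 FPKM, and 79.4% to 92.1% over left-out libraries; the new-set share (42.8%) was 23.9% to 55.8% over these. For the mean it was 31.3%, but 46.6%, 59.2% and 17.6% under the first 3 of these, and for the difference 69.3%, but 51.7%, 40.7% and 83.4%, and 79.6% at 5 FPKM.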
